A study of Mus musculus with 6 samples.

Results

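The annexins are calcium-dependent phospholipid-binding proteins, and 10 genes of the family, *Anxa1* to *Anxa8*, *Anxa10* and *Anxa11*, were followed in mouse ventricles that overexpress COUP-TFII. A gene was measured where a probe set of the array is annotated to its symbol and to no other. This held for 9 of the 10 genes, which had 21 probe sets, out of 18193 genes and 34945 probe sets that could be tested. The probe set for *Anxa11* also names 2 predicted genes, so *Anxa11* has no value here.

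Whole ventricles of 3 CTRL and 3 OE mice were hybridized to 6 Affymetrix whole-genome mouse arrays. CTRL mice carried *Myh6-MerCreMer*, a tamoxifen-activated Cre recombinase driven by the α-myosin heavy chain promoter of cardiomyocytes. OE mice carried *Myh6-MerCreMer* together with *CAG-S-COUP-TFII*, an allele from which Cre releases COUP-TFII expression. All mice were of 129SvEv/C57Bl6/J mixed strain, were given tamoxifen at 40 mg per kg per day for 3 days from 2 months of age, and were sampled 16 days after the first dose, at a labelled age of 2.5 months. Both groups therefore share the Cre and the drug and differ in the overexpression allele. Cre was active in cardiomyocytes, whereas the RNA came from every cell type of the ventricle. In such tissue fewer cells of a type and less RNA per cell cannot be told apart.

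Annexins share a conserved core that docks on negatively charged membrane lipids, above all phosphatidylserine, when calcium rises. Their N-terminal tails differ and bind partners such as S100 proteins. Through this switch they gather at torn plasma membrane and help to reseal it, organize vesicles and cortical actin, and at the outer cell surface dampen coagulation and inflammation. Annexins A5 and A6 are long-studied annexins of the heart, in which sarcolemmal wounds and calcium transients are constant features.

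The deposited values are log2 values that the authors had centred on the median of the 6 arrays for each probe set. They therefore give differences between arrays, and no annexin can be called more or less abundant than another. Where every OE array lay above every CTRL array in a probe set, the lowest OE value and the highest CTRL value are mirror images around 0. Where every OE array lay below, the highest OE value and the lowest CTRL value are. In both cases the median lies midway between them. Arrays differed from each other by a root mean square of 0.194 to 0.233 within groups and of 0.375 to 0.427 between groups. Of 6 probe sets for *Nr2f2*, the gene of COUP-TFII, 1 rose 11.2-fold in OE, by 3.49 with an SE of 0.13 on the log2 scale (limma, adjusted p = 2.57e-05). The other 5 had log2 differences of −0.34 to −0.13 that did not pass the test.

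Annexin transcripts were higher in OE ventricles for 8 of the 9 measured genes, where 14.9% of all genes tested were higher and 11.8% lower. The rises were of 1.29-fold to 2.11-fold, led by *Anxa4* and *Anxa7*, and *Anxa10* was the gene that did not pass. None was lower by limma at an adjusted p under 0.05, and none was lower at an unadjusted p under 0.05 or by one-way analysis of variance. The median log2 change of the 9 genes was 0.42, beside −0.03 for all genes. In the 8 genes every OE array lay above every CTRL array, an arrangement found in 22% of all genes, and in none of the 9 genes did every OE array lie below every CTRL array, as in 23.6% of all genes. An exact permutation test of 3 arrays against 3 gave its smallest possible p, 0.1, for each of the 8.

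The number of annexins called depended on the test, on the scale and on single arrays. The median log2 change of the 9 genes stayed at 0.38 to 0.46 on leaving out 1 array, beside 0.42 with all arrays. With a one-way analysis of variance, which the methods used, 4 of the 9 genes were called higher, beside 7.9% of all genes higher and 6.18% lower. When arrays were centred instead on ribosomal protein genes, themselves higher in OE by 0.217 on average on the log2 scale, the annexin median dropped from 0.42 to 0.21, the median over all genes from −0.03 to −0.25, and 3 annexins were called. The calls over all genes, 2709 higher and 2152 lower, became 1309 higher (7.2%) and 9221 lower (50.7%) on that scale. Without CTRL 1 or without OE 3, 4 annexins were called, and without CTRL 3 or without OE 1, 5 were. Calls over all genes fell in these fits too. They were 1986 higher without CTRL 1, 2109 without OE 3, 2371 without CTRL 3 and 1830 without OE 1. *Anxa2*, *Anxa4* and *Anxa7* were called in each of these settings, and *Anxa3* in all but the ribosomal centring, where its adjusted p was 0.0703.

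**Figure D1:**
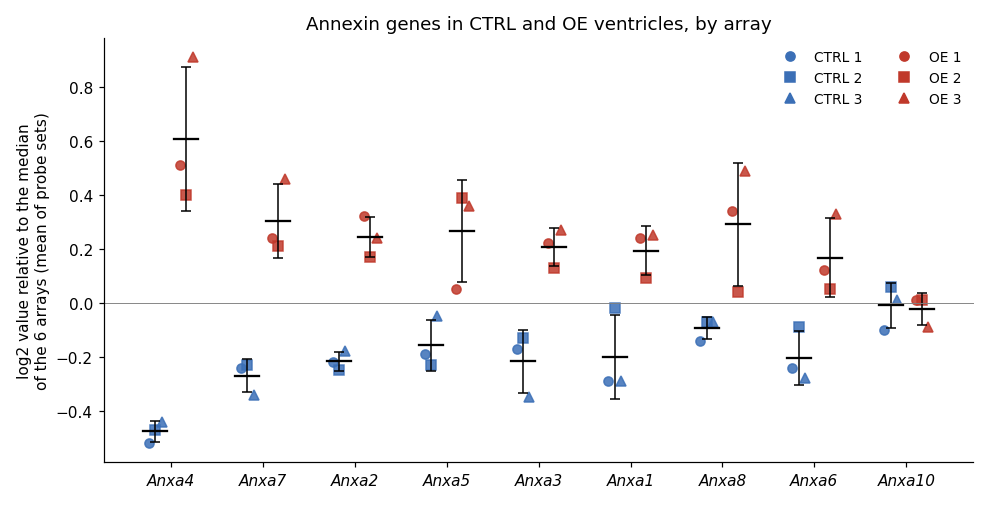
Each point is the log2 value of an annexin gene in 1 array, as the mean of its probe sets relative to the median of the 6 arrays. Blue is CTRL and red OE, with marker shapes for replicates, and black bars give the mean and SD of the 3 arrays of a group. Genes are ordered by their log2 change, and the groups stand apart in every gene but *Anxa10*, widest in *Anxa4*.

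*Anxa4* had the largest change of the family. Annexin A4 binds secretory and plasma membranes and in the heart interacts with adenylyl cyclase 5. Its log2 values were −0.52, −0.47 and −0.44 in the CTRL arrays and 0.51, 0.40 and 0.91 in the OE arrays. The CTRL arrays lay close together, and OE 3 stood above the other OE arrays. The gene rose 2.11-fold, by 1.08 on the log2 scale (SE 0.13, 95% interval 0.79 to 1.37, limma adjusted p = 0.00121). Of all genes tested, 1.37% had a larger rise. All 3 of its probe sets were called, at rises of 1.64-fold, 2.30-fold and 2.50-fold. Without OE 3 the log2 change was 0.93, and the gene was called in all 15 alternative settings. The 3 genes with the most similar values over the 6 arrays were the mitotic checkpoint gene *Mad2l1*, *Vasn* and the thrombospondin gene *Thbs3*, at root mean square differences of 0.0507, 0.0622 and 0.0657 on the log2 scale.

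*Anxa7* encodes synexin, which promotes the fusion of vesicles and binds the calcium sensor sorcin. Its log2 values were −0.24, −0.23 and −0.34 in CTRL and 0.24, 0.21 and 0.46 in OE, with no overlap. It was 1.49-fold higher (log2 0.57, SE 0.09, adjusted p = 0.00314). Of its 3 probe sets, 1416138_at had the largest change (log2 0.96, adjusted p = 0.000269) and was tight in both groups, with CTRL at −0.46 ± 0.02 (SD, n = 3) and OE at 0.50 ± 0.07 (SD, n = 3). A second probe set was also called (log2 0.59), and the third, 1438764_at, was not (log2 0.16, adjusted p = 0.382). Within each array the value of *Anxa4* minus that of *Anxa7* averaged −0.204 ± 0.088 (SD, n = 3) for CTRL and 0.304 ± 0.133 (SD, n = 3) for OE. This pair was chosen as the 2 annexins of largest change, so the values are a description without a test. The genes nearest to *Anxa7* in their values were *Apmap*, *Dync2li1*, which encodes a dynein chain, and the myosin light chain gene *Myl6*, at root mean square differences of 0.0382 to 0.0435.

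Annexins A1, A2, A5 and A6 are the members best known from the repair of wounded plasma membrane, and their genes all rose. *Anxa2*, whose product acts with S100A10 at the cell surface, was at log2 values of −0.22, −0.25 and −0.18 in CTRL and 0.32, 0.17 and 0.24 in OE. It was 1.38-fold higher (log2 0.46, SE 0.07, adjusted p = 0.00315), and the call held in every alternative setting. Its probe set 1419091_a_at had a log2 change of 0.67 and 1437692_x_at one of 0.53, both called. The third, 1437691_at, had a log2 difference of 0.18 (adjusted p = 0.186), although its OE arrays all lay above its CTRL arrays.

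*Anxa1* encodes a glucocorticoid-induced protein that restrains inflammation through formyl peptide receptors. Its log2 values were −0.29, −0.02 and −0.29 in CTRL and 0.24, 0.09 and 0.25 in OE. CTRL 2 and OE 2 came near each other, and the change was 1.31-fold (log2 0.39, SE 0.10, adjusted p = 0.0201). Only 1 of its 2 probe sets carried the rise. At 1448213_at CTRL stood at −0.38 ± 0.16 (SD, n = 3) and OE at 0.34 ± 0.12 (SD, n = 3), a 1.64-fold change (adjusted p = 0.00319). At 1444016_at the groups overlapped, with a log2 difference of 0.07 (adjusted p = 0.765). The call on the gene was lost on leaving out CTRL 1, CTRL 3, OE 1 or OE 3 (adjusted p from 0.0552 to 0.069), with analysis of variance (adjusted p = 0.0814) and with ribosomal centring (adjusted p = 0.164).

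*Anxa5*, whose product covers exposed phosphatidylserine and is used as a probe of apoptotic cells, has a single probe set. It was at −0.19, −0.23 and −0.05 in CTRL and 0.05, 0.39 and 0.36 in OE. CTRL 3 and OE 1 were separated by little, and the change was 1.34-fold (log2 0.43, SE 0.11, adjusted p = 0.0232). The call was lost without CTRL 1, CTRL 2, OE 2 or OE 3 (adjusted p from 0.0686 to 0.0725), with analysis of variance (adjusted p = 0.0967) and with ribosomal centring (adjusted p = 0.116).

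*Anxa6* encodes the annexin with a doubled core, which sits at the cardiomyocyte sarcolemma. The mean of its 4 probe sets was −0.24, −0.09 and −0.28 in CTRL and 0.12, 0.05 and 0.33 in OE, a 1.29-fold change (log2 0.37, SE 0.09, adjusted p = 0.0253). This mean joined probe sets that behaved differently. At 1415818_at CTRL stood at −0.40 ± 0.09 (SD, n = 3) and OE at 0.51 ± 0.18 (SD, n = 3), a 1.87-fold rise (log2 0.91, adjusted p = 0.00117), and 1429246_a_at was 1.54-fold higher (log2 0.62, adjusted p = 0.0274). At 1429247_at the log2 difference was 0.09 (adjusted p = 0.54) and at 1442288_at it was −0.15 (adjusted p = 0.345), with overlapping groups at each. Taking the probe set of largest variance for each gene therefore gave *Anxa6* a log2 change of 0.91, next to those of *Anxa4* (1.32) and *Anxa7* (0.96). On the mean the call was lost with analysis of variance (adjusted p = 0.0895), with ribosomal centring (adjusted p = 0.193) and without CTRL 1, CTRL 3, OE 1 or OE 3 (adjusted p from 0.0586 to 0.0741).

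**Figure D2:**
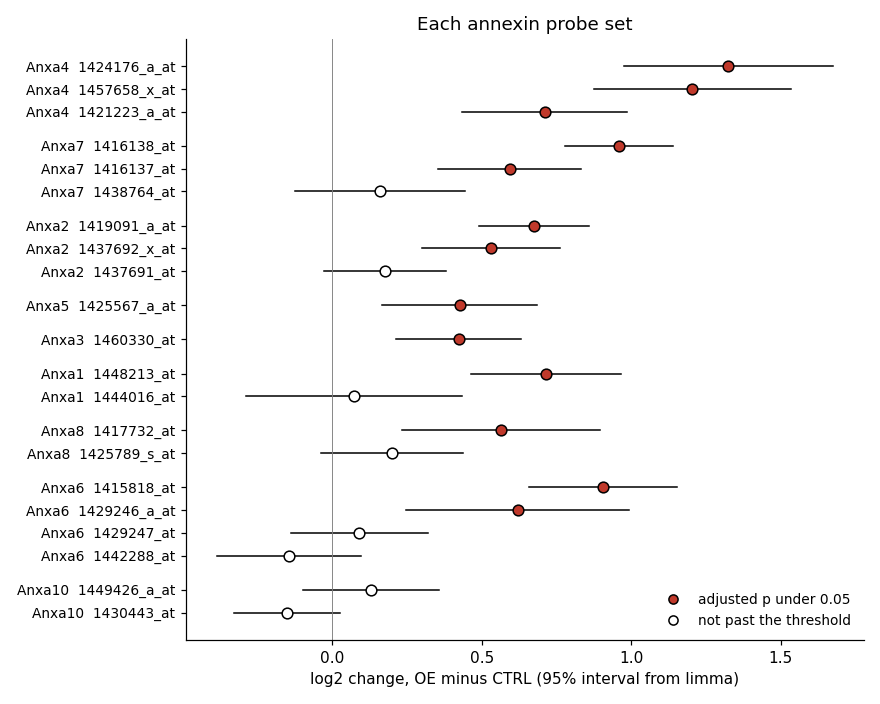
OE minus CTRL on the log2 scale for the 21 annexin probe sets, with its 95% interval from limma over all probe sets. Filled circles passed an adjusted p of 0.05 and open circles did not, and the 4 probe sets of *Anxa6* run from −0.15 to 0.91.

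The remaining annexins are less known from the myocardium. *Anxa3*, expressed in neutrophils and endothelium, has 1 probe set, at −0.17, −0.13 and −0.35 in CTRL and 0.22, 0.13 and 0.27 in OE. The change was 1.34-fold (log2 0.42, SE 0.08, adjusted p = 0.00899). *Anxa8*, which encodes an anticoagulant annexin of epithelia, was at −0.14, −0.07 and −0.07 in CTRL and 0.34, 0.04 and 0.49 in OE. Its OE arrays were spread widely, and the log2 change of 0.38 had an adjusted p of 0.0422. Leaving out any array but OE 2 ended this call (adjusted p from 0.0766 to 0.12), as did analysis of variance (adjusted p = 0.138) and ribosomal centring (adjusted p = 0.204). Its probe set 1417732_at was called (log2 0.56) and 1425789_s_at was not (log2 0.20, adjusted p = 0.194).

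*Anxa10*, an annexin of gastric epithelium, was at −0.10, 0.06 and 0.01 in CTRL and 0.01, 0.01 and −0.09 in OE. Its log2 difference was −0.01 (95% interval −0.18 to 0.16, adjusted p = 0.926). Its 2 probe sets had differences of opposite sign, −0.15 at 1430443_at (adjusted p = 0.19) and 0.13 at 1449426_a_at (adjusted p = 0.375), and all OE arrays lay below the CTRL arrays at the former. As the values hold no level, whether *Anxa8* and *Anxa10* were expressed above background in ventricle is not known here.

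Across the probe sets, 13 of the 21 were called higher and none lower, where 13.9% of all probe sets were higher and 10.4% lower. With ribosomal centring 9 of the 21 were called higher and 2 lower, beside 7.43% and 42.5% of all probe sets. At 14 of the 21 every OE array lay above every CTRL array, against 21.1% of all probe sets. In the order of log2 change, *Anxa4* came first, then *Anxa7*, *Anxa2*, *Anxa5*, *Anxa3*, *Anxa1*, *Anxa8*, *Anxa6* and last *Anxa10*. The 95% interval of *Anxa4* began at 0.79, above the upper end of that of *Anxa7* at 0.77, and from *Anxa7* to *Anxa6* the intervals of neighbours overlapped. Among the 8 called genes OE 3 held the highest OE value for 6, and OE 2 the lowest for 7.

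**Figure D3:**
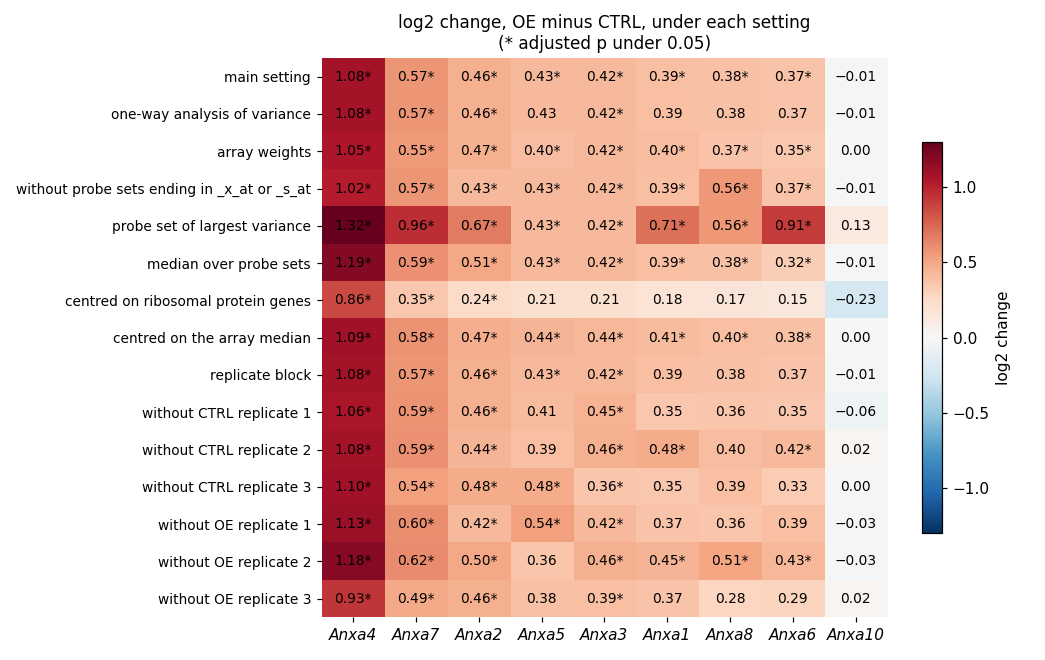
OE minus CTRL on the log2 scale for the 9 annexin genes, in columns, under the main setting and 14 alternatives, in rows. Colour and numbers give the log2 change and an asterisk an adjusted p under 0.05. *Anxa4*, *Anxa7* and *Anxa2* carry an asterisk in every row, and centring on ribosomal protein genes leaves these 3.

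Promoter sequences were available from RefSeq (GRCm38.p6) for 8 of the 10 genes, with 10 start sites in all, and not for *Anxa3* and *Anxa6*. The 250 bases before each start site were searched on both strands for AGGTCA, the hexamer that COUP-TFII binds, for the AP-1 site TGAGTCA, for the TEAD site CATTCC, for the GC box GGGCGG and for the CArG box of serum response factor. AGGTCA and the CArG box occurred in none of the 10, against 14% and 1.47% of all 32851 promoters. The AP-1 site occurred in *Anxa2*, which rose, and 2 times in *Anxa10*, which did not pass the test, against 4.46% of all promoters. CATTCC was in that of *Anxa1* only, against 12.6%, and the GC box in those of *Anxa2*, *Anxa7* and *Anxa11*, against 32.7%. These matches are a description of the letters. The upstream stretches of *Anxa2* (chr9:69453433-69453682, plus strand) and *Anxa10* (chr8:62123194-62123443, minus strand) are shown because both hold the AP-1 site. That of the outer start site of *Anxa4* (chr6:86793585-86793834, minus strand) is shown as the promoter of the gene with the largest change, with none of the letters searched. Capitals mark the AP-1 site and GC boxes.
*Anxa2*: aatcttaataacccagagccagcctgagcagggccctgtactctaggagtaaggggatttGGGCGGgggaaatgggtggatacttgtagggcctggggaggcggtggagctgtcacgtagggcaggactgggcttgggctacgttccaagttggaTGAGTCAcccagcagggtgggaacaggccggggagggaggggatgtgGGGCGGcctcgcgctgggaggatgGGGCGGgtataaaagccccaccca
*Anxa10*: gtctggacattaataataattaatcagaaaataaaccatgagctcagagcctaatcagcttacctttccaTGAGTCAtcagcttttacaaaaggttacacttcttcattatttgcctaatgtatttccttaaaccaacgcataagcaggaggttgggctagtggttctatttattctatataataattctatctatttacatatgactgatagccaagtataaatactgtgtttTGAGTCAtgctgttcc
*Anxa4*: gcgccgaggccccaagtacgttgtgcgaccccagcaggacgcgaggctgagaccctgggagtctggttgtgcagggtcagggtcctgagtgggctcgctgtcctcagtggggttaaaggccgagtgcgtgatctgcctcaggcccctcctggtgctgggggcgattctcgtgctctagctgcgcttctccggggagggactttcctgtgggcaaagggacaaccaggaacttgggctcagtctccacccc

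S100 proteins are the small calcium-binding partners that join annexins in pairs. Of 13 measured S100 genes 5 were higher and 1 lower, beside 14.9% and 11.8% of all genes, with a median log2 change of 0.26. The 5 fell to 3 without CTRL 2, OE 1, OE 2 or OE 3 and to 2 with analysis of variance, and the lower call was lost there and without each array other than CTRL 2. *S100a4*, a marker of motile mesenchymal cells, rose 2.26-fold (log2 1.18, SE 0.23, adjusted p = 0.00974), and *S100a6*, which encodes calcyclin, a partner of annexins A2 and A11, was 1.71-fold higher (adjusted p = 0.00125). *S100a13* (log2 0.67) and *S100a16* (log2 0.30) were higher too, and *S100a14* was lower (log2 −0.27, adjusted p = 0.0472). *S100a10*, the gene of the obligate partner of annexin A2 in its heterotetramer, differed by −0.01 on the log2 scale (SE 0.17, adjusted p = 0.973) beside the rise of *Anxa2*. *S100a11*, the gene of the partner of annexin A1, was not analysed here.

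Genes of cortical actin, endosomes and other annexin-binding proteins had the largest share of rises among these groups, with 16 of 30 higher and 1 lower. Of all genes 14.9% were higher and 11.8% lower. The median log2 change was 0.32, beside −0.03 for all genes. The 16 fell to 12 without OE 1 and with analysis of variance, where 7.9% of all genes were higher. The lower call was lost without CTRL 1, OE 2 or OE 3. The higher genes included *Lgals3*, the galectin of activated macrophages and fibroblasts (log2 1.13, adjusted p = 0.0159), moesin (*Msn*, log2 0.93), the actin-capping protein *Capg* (log2 0.88) and cortactin (*Cttn*, log2 0.75). *Gsn*, which encodes the actin-severing gelsolin, was lower (log2 −0.35, adjusted p = 0.0175). *Sri*, the gene of sorcin, picked after its values were seen because it binds annexin A7, was 1.44-fold higher (adjusted p = 0.0103).

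Of 29 genes of plasma membrane repair, 10 were higher and 3 lower, beside 14.9% and 11.8% of all genes, with a median of 0.10. The 10 fell to 6 without CTRL 2, without OE 1 and with analysis of variance, and the 3 to 1 with analysis of variance and without each array other than CTRL 1. *Tgm2*, a transglutaminase that crosslinks proteins (log2 1.36, adjusted p = 9.87e-05), and *Dysf*, the repair protein dysferlin that binds annexins A1 and A2 (log2 1.27, SE 0.09, adjusted p = 0.000188), rose most, followed by *Ehd4* (log2 0.64) and *Ahnak* (log2 0.56). The synaptotagmin gene *Syt7* (log2 −0.48) and *Ehd2*, a stabilizer of caveolae (log2 −0.37), were lower. *Trim72*, the muscle repair protein MG53, named after its value was seen, had a log2 difference of −0.06 (adjusted p = 0.611).

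Phosphatidylserine is the lipid that annexins recognize. Genes of its exposure and recognition, with lipid flippase genes among them, were called about as often as genes at large, 22.6% beside 26.7%. Of 31 genes 3 were higher, namely *Itgb5* (log2 0.93), the receptor gene *Axl* (log2 0.44) and its ligand gene *Gas6* (log2 0.43). A further 4 were lower, led by the flippase gene *Atp10d* (log2 −1.35, adjusted p = 0.0186). The 4 fell to 2 without CTRL 2 or OE 2 and to 1 without OE 1 and with analysis of variance. Of 20 genes of formyl peptide receptors and lipid mediators, 3 were higher, a share near the 14.9% of all genes. A further 6 were lower, beside 11.8% of all genes. The 6 fell to 2 without OE 1 and to 3 without CTRL 2, CTRL 3, OE 2 or OE 3. The secreted phospholipase gene *Pla2g5* was lower (log2 −2.78, adjusted p = 0.000143) and so was the lipoxygenase gene *Alox5* (log2 −0.73). The prostacyclin synthase gene *Ptgis* (log2 1.24) and *Pla2g4a*, the cytosolic phospholipase held back by annexin A1 (log2 1.09, adjusted p = 0.00237), were higher. *Fpr2*, the receptor gene of annexin A1, named after its value was seen, had a log2 difference of 0.19 (adjusted p = 0.154). Annexin A2 promotes plasmin generation at the cell surface. Of 12 genes of this process and of coagulation control, 2 were higher and 2 lower, shares close to the 14.9% and 11.8% of all genes. *Serpinb6a* (log2 0.99) and the plasminogen receptor gene *Plgrkt* (log2 0.55) were higher. The coagulation regulators thrombomodulin (*Thbd*, log2 −0.87) and *Tfpi* (log2 −0.52) were lower. Of the 2 lower calls 1 was lost with analysis of variance and on leaving out any array but OE 3. The other 8 genes were not called, among them *Plg* (log2 0.03), *Plat* (log2 0.04) and *Plau* (log2 −0.06), named after their values were seen.

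Centring on ribosomal protein genes shifts all genes alike, to 7.2% called higher and 50.7% lower, and the groups are to be read against those shares. On that scale 12 of the 30 cortical actin genes were higher and 3 lower, 6 of the 29 repair genes were higher and 11 lower, 3 of the 13 S100 genes were higher and 4 lower, and 1 of the 31 phosphatidylserine genes was higher and 14 lower.

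**Figure D4:**
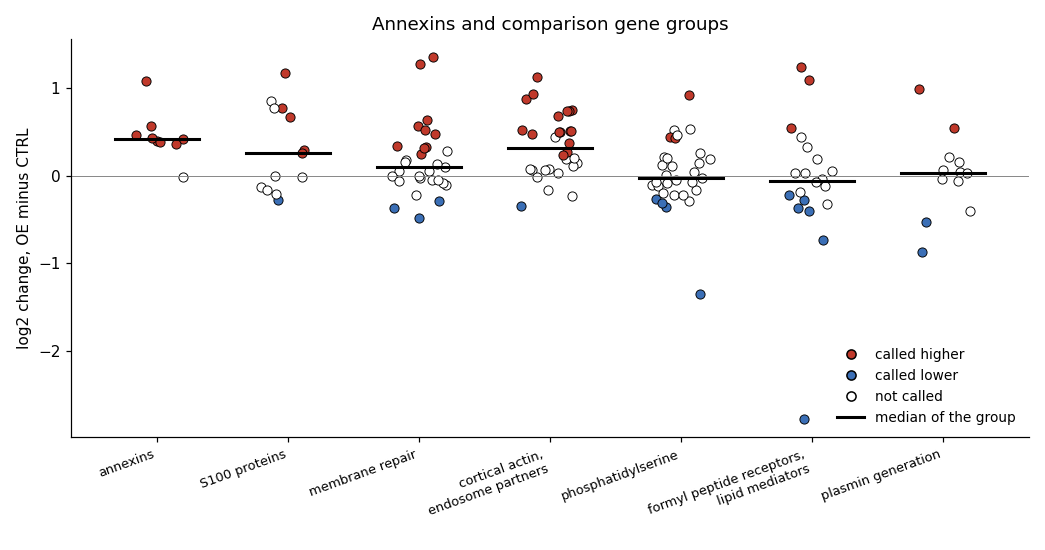
OE minus CTRL on the log2 scale for the measured genes of the annexin family and of 6 comparison groups, 3 arrays per group. Red points are genes called higher, blue points genes called lower and white points the rest, and black bars mark medians, 0.42 for the annexins and 0.32 for the cortical actin and endosome group.

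Marker genes of the cell types that a ventricle holds differed between the groups in the same arrays. Their counts stand beside 14.9% of all genes higher and 11.8% lower by limma, and 7.9% and 6.18% by analysis of variance. Of 18 macrophage markers 11 were higher, or 3 with analysis of variance, and the mean of the list ran from −0.447 to −0.177 in CTRL and from 0.113 to 0.380 in OE, with OE 3 highest. Of 17 fibroblast markers 7 were higher and 4 lower, among them the collagen genes *Col3a1* (log2 1.43) and *Col1a2* (log2 1.29) and, in the other direction, *Dpep1* (log2 −0.64) and *Ddr2* (log2 −0.41). With analysis of variance 3 were higher and 2 lower, and the 4 lower fell to 1 without OE 2 and to 2 without OE 3. The fibroblast mean ran from −0.342 to −0.081 in CTRL and from 0.019 to 0.223 in OE. Of 18 endothelial markers 10 were lower, led by *Robo4* (log2 −0.74), and this number fell to 4 without OE 2, to 6 without CTRL 2 and to 2 with analysis of variance. Of 20 cardiomyocyte markers 10 were lower, led by *Myh6* (log2 −1.31), and 4 higher, led by *Nkx2-5* (log2 0.50). The 4 fell to 1 without CTRL 1, without OE 2 and with analysis of variance, and to 2 without CTRL 3, OE 1 or OE 3. Smooth muscle and pericyte markers moved both ways, with 5 of 13 higher and 6 lower. Of 13 mesothelial and epicardial markers 3 were higher, led by *Aldh1a2* (log2 1.02), and 10 were not called. The median log2 change of this list was −0.11, and *Upk3b* (log2 −0.54) and *Muc16* (log2 −0.45) were among those not called. Of 8 neutrophil markers 1 was lower, *Cxcr2* (log2 −0.33), and the list mean ran from −0.203 to 0.117 in CTRL and from −0.071 to 0.412 in OE. The value of OE 3 came from *S100a8* (1.66) and *S100a9* (1.55), and the mean of the other 6 was 0.015 in OE 3, within −0.156 to 0.015 in OE and −0.026 to 0.109 in CTRL. Of 13 lymphocyte markers none was called by limma, 3 were lower at an unadjusted p under 0.05, and none was called by analysis of variance. Ribosomal centring called 7 lower, close to the share of all genes lower on that scale. The part of these cell types in the annexin values was not tested, and defining markers cannot be placed near 0 because the values hold no level.

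**Figure D5:**
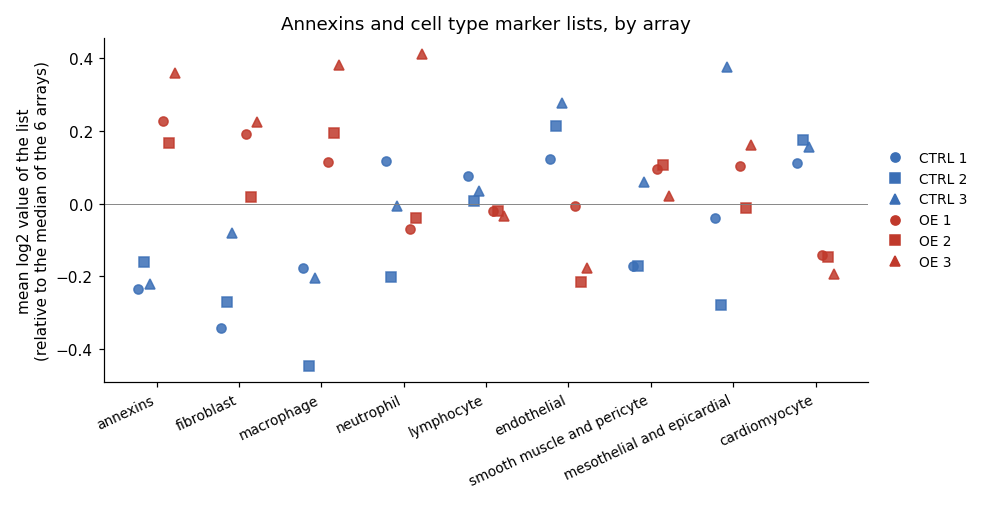
Mean log2 value of the 9 annexin genes and of 8 cell type marker lists in each array, relative to the median of the 6 arrays. Blue is CTRL and red OE, with marker shapes for replicates. The annexin mean runs from −0.234 to −0.160 in CTRL and from 0.165 to 0.358 in OE. The macrophage and fibroblast means also stand higher in OE without overlap, and the endothelial, cardiomyocyte and lymphocyte means stand lower in OE without overlap.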

How the data were processed

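Deposited log2 values of 45101 probe sets in 6 arrays were used. The authors obtained the deposited log2 values with the GeneSpring GX software, by RMA, then quantile normalization, then subtraction of the median of the 6 samples, and the base of the logarithm, not stated in the sources used here, was taken as 2. Filters on expression level, other background corrections and scan dates could not be applied to values without a level. The 932 probe sets naming several symbols, 9211 with no gene here and 64 array controls were left out. Probe sets of a gene were averaged, with symbols updated through gene IDs to GRCm38.p6.

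The contrast of OE and CTRL was fitted in limma 3.58.1 under R 4.3.3 (lmFit, eBayes), two-sided and without covariates, with Benjamini-Hochberg adjustment over 18193 genes, or over 34945 probe sets, and a threshold of 0.05. The methods used one-way analysis of variance. limma was preferred because 3 arrays give an unsteady variance per gene. The script was tested on simulated data. SE and 95% intervals are those of limma.

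The annexin genes and the comparison and marker lists were chosen with earlier results of these data known. The lists hold no annexin. *Gsn* stands in the cortical actin and the fibroblast list, and *S100a8* and *S100a9* in the S100 and the neutrophil list. Named genes are all annexins with every probe set, annexin partners of the S100 group, up to 4 called genes of largest change and up to 2 called against the majority from each list, the 3 nearest genes of the 2 annexins with the largest change, and *Nr2f2*. For marker lists fewer were named. Protein sequences were not used here. The animals are separate mice per the study's methods. Figures were drawn with Python 3.11.15, pandas 2.3.3 and matplotlib 3.10.9. The precision is limited by the number of arrays.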

Additional observations from a re-analysis of the deposited data

How the results depend on the processing

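The direction of the 8 called annexin genes was the same in all 15 alternatives (9 settings of the processing, and 6 fits that each leave out 1 array), and what changed was how many were called. From 8, the number fell to 4 with one-way analysis of variance, 3 with centring on 43 ribosomal protein genes and 4 to 7 on leaving out 1 array. It stayed at 8 with array weights, with _x_at and _s_at probe sets dropped, with the probe set of largest variance, with the median over probe sets, with arrays centred on their medians and past a fold limit of 1.2. The replicate number as a block gave 5 called annexins, with *Anxa1* (adjusted p = 0.0502), *Anxa6* (0.0567) and *Anxa8* (0.0553) lost. Between arrays with the same number, deviations from the group means had correlations of 0.07, −0.117 and 0.025. Of 3 CTRL arrays 1 was nearest to its own number. With 3 arrays a group these values cannot settle whether arrays with the same number were paired. The main fit has no pairing, as the labels give only replicate numbers. Annexin probe sets called higher numbered 7 with analysis of variance and 10 to 12 on leaving out 1 array, against 13. Ribosomal centring called 9 higher and 2 lower, 1430443_at of *Anxa10* (log2 −0.37) and 1442288_at of *Anxa6* (log2 −0.36). Over all genes, analysis of variance called 1437 higher and 1125 lower and ribosomal centring 1309 and 9221, while leaving out 1 array gave 1830 to 2371 higher and 1243 to 1731 lower. Centring on genes that are themselves higher in OE lowers every OE value by construction, and which scale is right was not tested. For the other changes the cause was not tested. The main fit, the analysis of variance and the fits that leave out an array all assume that the spread is equal in both groups. The SD was 0.038 in CTRL and 0.267 in OE for *Anxa4*, and 0.042 and 0.231 for *Anxa8*. For *Anxa1* it was larger in CTRL, at 0.155 against 0.089 in OE.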

Other observations

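The array also carries 2 annexins outside the 10 genes, and they were looked at after the values of the family were known. *Anxa13*, the intestinal annexin with a myristoylated form, has 1 probe set, at log2 values of 0.49, 0.30 and 0.55 in CTRL and −0.30, −0.43 and −0.32 in OE. In OE it was 1.74-fold lower, by −0.80 on the log2 scale (SE 0.08, limma adjusted p = 0.000866), with every OE array below every CTRL array, as in 23.6% of all genes. *Anxa9* was at 0.03, 0.02 and −0.08 in CTRL and −0.02, 0.09 and −0.03 in OE, a log2 difference of 0.02 (adjusted p = 0.815).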
